A study of Mus musculus with 50 samples.

Results

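The early sarcopenic phase of the aging mouse muscle was compared with the adult phase. The early sarcopenic phase was defined by age, as the 16 mice of 22 and 24 months, and the adult phase as the 16 mice of 8 and 18 months, out of 50 mice in the series, with 8 mice at each of the 4 ages. All were male wild-type C57BL/6JRj mice, an inbred laboratory strain, kept in single cages and fed the purified AIN-93M diet, and each library was made from the gastrocnemius, the large calf muscle, of one mouse. Mice of 8 and 18 months were moved to this diet some time ahead of dissection, whereas those of 22 and 24 months had been on it since around the age of the older adults, so that diet history and phase cannot be told apart. Mice with overt illness or tumors had been left out, so these groups stand for aging animals without gross disease. Each library was a stranded mRNA library, and total counts assigned to genes ranged from 13758961 to 21267375 in adult and from 13607229 to 20093471 in early sarcopenic mice. The markers of the labelled tissue were present: 10 muscle fiber markers summed to between 142770.0 and 194740.0 CPM (counts scaled to the size of each library) in adult mice and between 136120.0 and 199050.0 in early sarcopenic mice.

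Sarcopenia is the loss of muscle mass and function with age. Aging muscle fibers can lose their contact with the motor nerve, and fibers without a nerve switch on genes that are otherwise kept to the neuromuscular junction, such as subunits of the acetylcholine receptor. The tissue also holds fat cells, fibroblasts that lay down the collagen matrix, Schwann cells around the nerves and immune cells, and in a bulk library fewer cells of a type and less RNA per cell cannot be told apart.

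Few genes were called between the phases, and mostly with small changes. Of the 12586 genes tested (1 CPM or more in 8 or more mice), 102 passed an adjusted p of 0.01 in edgeR's quasi-likelihood test, which is 0.81% of the genes, with 54 higher (0.429%) and 48 lower (0.381%) in the early sarcopenic mice. A change of 2-fold or more was seen in 17 called genes that rose and 9 called genes that fell. The median size of the change of the called genes was 0.58 on the log2 scale, against 0.090 over all genes tested. An unadjusted p under 0.05 was reached by 2416 genes (19.2%), so weak differences were spread over many more genes than were called. The ages within a phase were set against each other in the same model. Between 24 and 22 months edgeR called 0 genes, with 478 genes (3.8%) at an unadjusted p under 0.05, and DESeq2, edgeR's likelihood ratio test and limma also called 0. Between 18 and 8 months it called 9 genes (0.0715%), 5 higher (0.0397%) and 4 lower (0.0318%) at 18 months, and 460 genes (3.65%) had an unadjusted p under 0.05.

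The number of calls depended on which ages and mice entered. With 24 months left out of the contrast 1 gene was called, and with 8 months left out 7 were called, whereas 89 were called without 18 months and 91 without 22 months. The fit shares its estimate of the spread with the mice of 26 and 28 months, and with the 32 mice alone in the fit 289 genes were called, 100 of them among the 102. Of the 28 genes named below by size of change or smallest p, 1 stayed called without 8 months (Sh3rf2) and 1 without 24 months (Amy1). Levels at each age are given for Chrna1, Sln, Amy1, Scd1, Smox and Col5a2, and most other genes are given by phase only. CPM values are scaled by TMM factors (trimmed mean of M-values). SE is an approximate standard error, the size of the log2 fold change divided by the square root of the F statistic of its test.

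**Figure D1:**
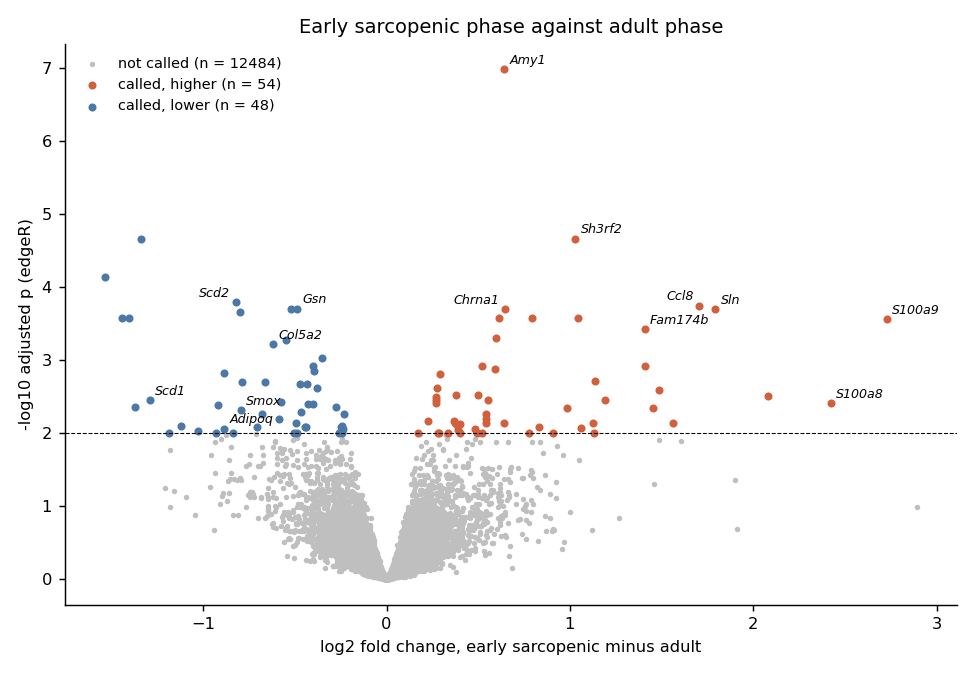
Change of each gene between the phases (x axis, log2 fold change, early sarcopenic minus adult) against its adjusted p in edgeR (y axis, -log10). Each point is a gene, the dashed line marks an adjusted p of 0.01, and the 54 genes called higher and 48 called lower lie above it, with Amy1 highest.

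Chrna1 and Sln, genes known to rise in muscle fibers without a nerve, were higher in the early sarcopenic phase. Of 24 tested genes of a denervation list, these 2 passed the test, both higher, where 0.429% of all genes did, and the median log2 change of the list was 0.13 against -0.0065 over all genes. Chrna1 encodes the alpha subunit of the muscle acetylcholine receptor and lies on the minus strand at chr2:73563215-73580338 (GRCm38). Its level in the adult mice was lowest at 15.1, at the median 18.0 and highest at 23.1 CPM, and in the early sarcopenic mice 21.6, 25.8 and 55.3 CPM. In 14 of the 16 early sarcopenic mice Chrna1 stood above every adult mouse. The change was 0.65 on the log2 scale (SE 0.11, adjusted p = 0.000202, edgeR), and the mean was 17.5 ± 2.20 CPM at 8 months, 19.5 ± 2.75 at 18, 24.8 ± 3.05 at 22 and 33.6 ± 10.6 at 24 months (SD, n = 8 mice each).

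The other subunits of the receptor did not pass the test. Chrnb1, the beta subunit, was at 32.5 CPM at the adult median and 40.7 at the early sarcopenic median, a log2 change of 0.34 (SE 0.09, adjusted p = 0.0231, edgeR). Chrne, the epsilon subunit of the adult receptor, had a log2 change of -0.04 (SE 0.11), and Chrnd, the delta subunit, 0.18 (SE 0.13). Runx1, a transcription factor of denervated muscle, and Hdac9, a histone deacetylase that answers to nerve input, had log2 changes of 0.72 (SE 0.19) and 0.68 (SE 0.18) with adjusted p-values of 0.0299 and 0.0310 in edgeR. Chrng, the gamma subunit of the fetal receptor, had too few counts to be tested and was at 0 in 9 of the 32 mice.

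The promoters of 3 of these subunits are shown, that of Chrna1, which was called, and those of Chrnb1 and Chrne, which were not. That of Chrnd was not searched. Each window runs from 250 bases before to 50 bases after the start site, in the direction of the gene, from RefSeq on GRCm38.p6, at chr2:73580289-73580588 (Chrna1), chr11:69795888-69796187 (Chrnb1) and chr11:70619145-70619444 (Chrne), all on the minus strand. Capitals mark CAGCTG, a form of the E-box that myogenic helix-loop-helix factors bind, which reads the same on both strands.
Chrna1: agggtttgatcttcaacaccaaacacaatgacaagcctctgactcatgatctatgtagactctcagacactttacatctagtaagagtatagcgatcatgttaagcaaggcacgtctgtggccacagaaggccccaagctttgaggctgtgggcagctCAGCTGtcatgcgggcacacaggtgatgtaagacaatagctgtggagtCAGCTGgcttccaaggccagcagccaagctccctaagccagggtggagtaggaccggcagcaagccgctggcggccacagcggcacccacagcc
Chrnb1: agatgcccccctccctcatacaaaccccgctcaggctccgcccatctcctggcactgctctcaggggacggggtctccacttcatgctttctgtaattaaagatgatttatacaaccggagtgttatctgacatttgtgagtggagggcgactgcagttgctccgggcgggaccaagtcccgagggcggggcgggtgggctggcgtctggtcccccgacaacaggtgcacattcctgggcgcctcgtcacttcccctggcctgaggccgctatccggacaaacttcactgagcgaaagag
Chrne: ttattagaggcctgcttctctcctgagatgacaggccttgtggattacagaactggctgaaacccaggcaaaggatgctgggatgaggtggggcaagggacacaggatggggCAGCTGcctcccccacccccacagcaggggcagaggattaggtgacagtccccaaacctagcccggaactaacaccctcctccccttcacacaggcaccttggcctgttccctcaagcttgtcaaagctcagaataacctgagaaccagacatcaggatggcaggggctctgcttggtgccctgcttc
The Chrna1 window held 2 matches, which began 92 and 44 bases before the start site. The Chrne window held 1, at 138 bases, and the Chrnb1 window none. Over 32851 promoter windows of the same length 16.3% held the motif and 1.9% held it 2 or more times. A match of letters is a description and not a binding site, and other forms of the E-box were not searched for. Whether the motif bears on which subunit was called was not tested.

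Sln rose the most of the genes above a mean of 5 CPM. It encodes sarcolipin, a small inhibitor of the calcium pump of the sarcoplasmic reticulum, and lies on the plus strand at chr9:53850164-53854560. Adult mice ranged from 0.796 over a median of 3.44 to 7.51 CPM, and early sarcopenic mice from 4.29 over 8.12 to 45.5 CPM. Sln was above the adult median in all 16 early sarcopenic mice and above every adult mouse in 9 of them. The log2 change was 1.79 (SE 0.29, adjusted p = 0.000202, edgeR), and the mean went from 2.90 CPM at 8 months over 4.67, 10.9 and 14.8 at 18, 22 and 24 months to 55.4 at 28 months. The highest Sln, Chrna1, Ccl8 and Fam174b were all in replicate 1 of 24 months, and all of these genes were still called when any one of the 32 mice was left out. None of them was called with 8 or with 24 months left out of the contrast. Without 24 months the log2 change was 1.57 for Sln (adjusted p = 0.0711, edgeR) and 0.43 for Chrna1 (adjusted p = 0.251, edgeR). Without 8 months it was 1.45 for Sln (adjusted p = 0.093, edgeR) and 0.57 for Chrna1 (adjusted p = 0.0501, edgeR). Sln was the 1 called gene among 25 tested genes of calcium handling, where 0.429% of all genes were called higher, and the median log2 change of the list was 0.05. The slow fiber list had 0 called genes of 15 tested, with 7 higher at an unadjusted p under 0.05, where 8.32% of all genes were, and its median of 0.43 was the highest of the 30 pathway lists. Myh7, the slow myosin heavy chain, ranged from 58.1 to 438 CPM in adult and from 14.0 to 1077 CPM in early sarcopenic mice, and its log2 change was 0.78 (SE 0.32, adjusted p = 0.171, edgeR).

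**Figure D2:**
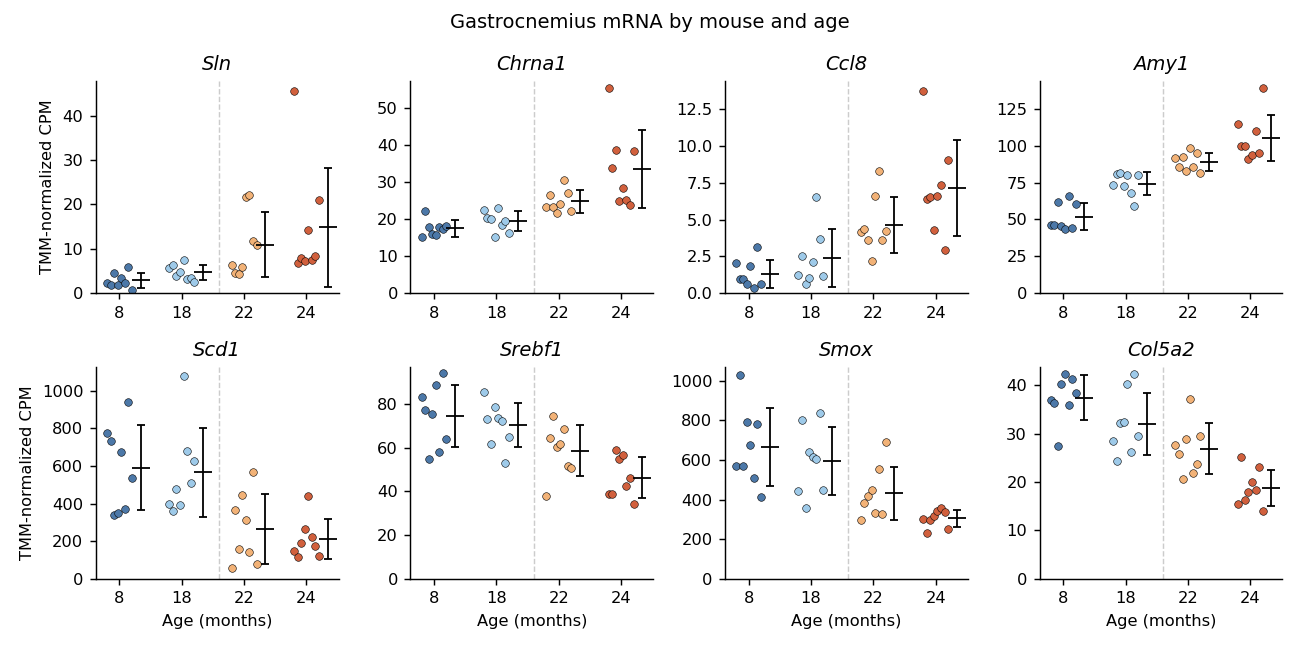
Levels of 8 called genes in each of the 32 mice (y axis, TMM-normalized CPM) by age in months (x axis). Points are mice, and the black mark and bar beside them are the mean ± SD of the 8 mice of an age. The dashed line parts adult from early sarcopenic mice. Amy1 is the gene without overlap between the phases in these CPM values.

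In CPM, Amy1 was the single gene of the 12586 tested without overlap of the 16 early sarcopenic and the 16 adult values (0.00795% of the genes). It encodes an alpha-amylase, an enzyme that cuts starch and glycogen, and lies at chr3:113555710-113606699 on the minus strand. Adult mice ranged from 43.8 over a median of 63.7 to 81.4 CPM, and early sarcopenic mice from 81.7 over 94.1 to 139 CPM. In the deposited TPM values, which are also scaled by transcript length, the phases overlapped, with 97.2 in 18m replicate 3 and 83.8 in 22m replicate 8. The log2 change was 0.64 (SE 0.07, adjusted p = 1.05e-07, edgeR). Amy1 was also called between the adult ages, with 51.7 ± 9.21 CPM at 8 and 74.4 ± 7.77 at 18 months (SD, n = 8 each), a log2 change of 0.52 (SE 0.10, adjusted p = 0.00859, edgeR). Its mean was 89.2 CPM at 22, 105 at 24, 127 at 26 and 136 at 28 months. Amylase genes lie in a cluster of near-identical copies, and reads that fit several transcripts were divided among them, so the level of Amy1 itself is uncertain. With 8 months left out of the contrast the log2 change of Amy1 was 0.38 and the gene was not called (adjusted p = 0.0509, edgeR), and with 24 months left out it was 0.52 and was called (adjusted p = 0.00254, edgeR).

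Scd1, Scd2 and Srebf1, genes of fat synthesis, were lower in the early sarcopenic phase. Of 24 tested genes of fatty acid and cholesterol synthesis 3 fell, against 0.381% of all genes, 0 rose, and 20 had a negative log2 change where 51.9% of all genes did. The median of the list was -0.14. The genes Scd1 and Scd2 encode stearoyl-CoA desaturases, which make monounsaturated fatty acids, and Srebf1 encodes a transcription factor that turns on fat synthesis genes. Scd1, on the minus strand at chr19:44394455-44407879, ranged from 341 over a median of 524 to 1078 CPM in adult mice and from 58.2 over 183 to 570.3 CPM in early sarcopenic mice. In 12 of the 16 early sarcopenic mice Scd1 lay below every adult mouse. It fell by 1.29 on the log2 scale (SE 0.27, adjusted p = 0.00356, edgeR), with means of 591 and 566 CPM at 8 and 18 months and 267 and 209.7 CPM at 22 and 24 months. Without 24m replicates 2 and 3 Scd1 was not called (adjusted p = 0.0108, edgeR).

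Scd2 went from 35.6 over 49.9 to 74.5 CPM in adult mice and from 16.7 over 27.6 to 46.6 CPM in early sarcopenic mice, and fell by 0.82 on the log2 scale (SE 0.13, adjusted p = 0.000162, edgeR). Srebf1 went from 53.1 over 73.2 to 94.0 CPM in adult and from 34.1 over 53 to 74.3 CPM in early sarcopenic mice, and fell by 0.47 (SE 0.09, adjusted p = 0.00215, edgeR). The phases overlapped for both genes, with 12 early sarcopenic mice below all adults for Scd2 and 8 for Srebf1. With 24 months left out of the contrast the log2 change was -0.69 for Scd2 (adjusted p = 0.0822, edgeR) and -0.30 for Srebf1 (adjusted p = 0.474, edgeR). Fasn, the fatty acid synthase, had a log2 change of -0.89 (SE 0.28) and did not pass the test (adjusted p = 0.0657, edgeR).

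Some fat cell markers fell too. Of 10 adipocyte markers, 2 fell (Adipoq and Thrsp), where 0.381% of all genes did, and 8 were lower at an unadjusted p under 0.05, where 10.9% of all genes were. The median log2 change was -0.82, while no marker was at 0 in any mouse. The sum of the 10 markers ranged from 669.0 to 1291.7 CPM in adult and from 513.87 to 1225.5 CPM in early sarcopenic mice, but most of it was Lpl, a lipase that muscle makes too. Without Lpl the sum ranged from 94.3 to 359 CPM with a median of 192 in adult mice and from 41.6 to 228 CPM with a median of 96.2 in early sarcopenic mice. Adipoq, the fat cell hormone adiponectin, ranged from 11.8 over 24.7 to 36.4 CPM in adult and from 3.59 over 11.8 to 28.7 CPM in early sarcopenic mice and fell by 0.89 on the log2 scale (SE 0.20, adjusted p = 0.00873, edgeR). Thrsp, a protein that promotes fat synthesis, fell by 0.68 (SE 0.15, adjusted p = 0.00548, edgeR). Cdo1, a cysteine dioxygenase, fell by 0.93 (SE 0.21, adjusted p = 0.00992, edgeR), with medians of 10.3 CPM in adult and 5.18 CPM in early sarcopenic mice. The calls of Adipoq, Cdo1 and Thrsp were lost when 1 mouse was left out in 21, 22 and 7 of 32 cases. The part of the fat cells in the decrease of Scd1, Scd2 and Srebf1 was not tested.

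**Figure D3:**
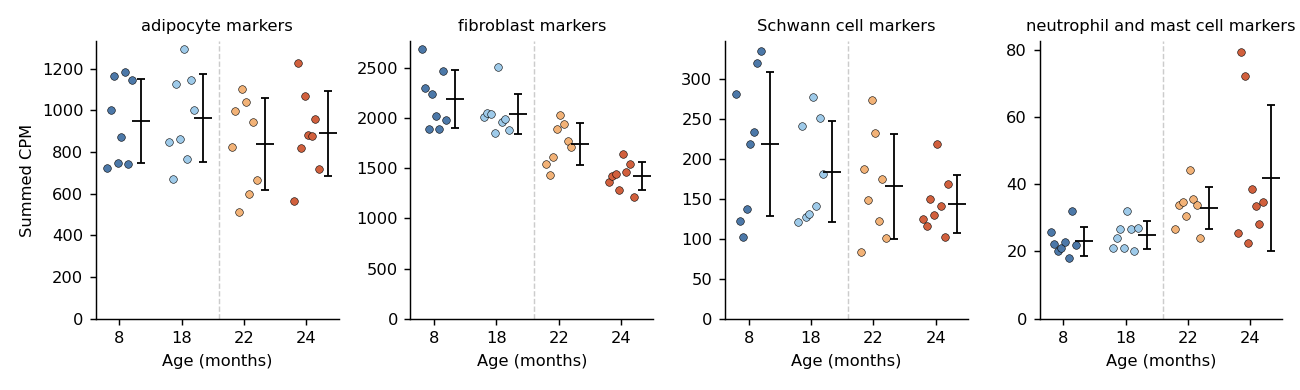
Summed level of the tested markers of 4 cell types (y axis, TMM-normalized CPM) in each mouse by age in months (x axis). Points are mice and the black mark and bar are the mean ± SD of the 8 mice of an age; the sum of the fibroblast markers ranges from 1852.6 to 2688.2 CPM in adult and from 1210.4 to 2031.0 CPM in early sarcopenic mice.

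Of the collagens and the proteins that process them, all 43 listed genes were tested. Of these 4 fell (Col5a2, Sparc, Serpinh1 and Adamts2), against 0.381% of all genes, and 0 rose. In this list 24 genes were lower at an unadjusted p under 0.05, where 10.9% of all genes were. The median log2 change of -0.25 was the lowest of the 30 pathway lists. Col5a2 is a chain of collagen V, which sets the width of collagen fibrils, and lies at chr1:45374321-45503282 on the minus strand. It ranged from 24.3 over 36.1 to 42.4 CPM in adult mice and from 14.0 over 22.4 to 37.1 CPM in early sarcopenic mice. In 10 early sarcopenic mice it was below every adult mouse, and it fell by 0.62 on the log2 scale (SE 0.11, adjusted p = 0.000609, edgeR). Its mean was 37.4 and 31.9 CPM at 8 and 18 months and 26.9 and 18.8 CPM at 22 and 24 months. With 24 months left out of the contrast the log2 change of Col5a2 was -0.36 (adjusted p = 0.474, edgeR). With 8 months left out it was -0.51 (adjusted p = 0.103, edgeR).

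Serpinh1, the chaperone of collagen in the endoplasmic reticulum, ranged from 43.2 over 66.1 to 122 CPM in adult and from 34.2 over 43.6 to 77.2 CPM in early sarcopenic mice, and fell by 0.58 (SE 0.13, adjusted p = 0.00650, edgeR). Sparc, a collagen-binding matrix protein, had medians of 233 and 179.7 CPM and fell by 0.35 (SE 0.06, adjusted p = 0.000921, edgeR), and Adamts2, which trims procollagen, fell by 0.45 (SE 0.10, adjusted p = 0.00830, edgeR). The main fibrillar chains had larger but more variable differences that did not pass the test. Col3a1 was at a median of 177 CPM in adult and 96.2 CPM in early sarcopenic mice (log2 change -0.90, SE 0.21, adjusted p = 0.0121, edgeR), and Col1a2 at 187 and 119 CPM (-0.74, SE 0.19, adjusted p = 0.0200, edgeR). Serpinh1 lost its call in 11 of 32 cases with 1 mouse left out, and Adamts2 lost its call without 24m replicates 2 and 3 (adjusted p = 0.0135, edgeR). With 24 months left out of the contrast the log2 change was -0.21 for Sparc (adjusted p = 0.468, edgeR) and -0.50 for Serpinh1 (adjusted p = 0.294, edgeR).

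All 10 fibroblast markers had a negative log2 change, with a median of -0.32, and 2 of them fell, Gsn and Dpt, where 0.381% of all genes did. Gsn, the actin-severing protein gelsolin, ranged from 1383 over 1528 to 2139.8 CPM in adult and from 799 over 1109 to 1556 CPM in early sarcopenic mice, and fell by 0.49 (SE 0.08, adjusted p = 0.000198, edgeR). Dpt, the matrix protein dermatopontin, had medians of 67.5 and 49.7 CPM and fell by 0.49 (SE 0.11, adjusted p = 0.00732, edgeR). In each of the 2 genes 13 early sarcopenic mice were below every adult mouse. Dpt was not called without 24m replicates 2 and 3 (adjusted p = 0.0122, edgeR) or without 18m replicate 2 and 8m replicate 3 (adjusted p = 0.0105, edgeR). Without Gsn the other fibroblast markers summed to a median of 496 CPM in adult and 432 CPM in early sarcopenic mice, and none was at 0 in any mouse. Schwann cell markers had 0 calls of 10 with a median log2 change of -0.34 and summed to between 102.73 and 335.13 CPM in adult and between 84.04 and 274.35 CPM in early sarcopenic mice. The part of fibroblast and Schwann cell content in the decrease of the collagen genes was not tested. Angptl1, a secreted angiopoietin-like protein, ranged from 7.04 over 10.4 to 14.5 CPM in adult and from 3.38 over 5.80 to 8.69 CPM in early sarcopenic mice and fell by 0.80 (SE 0.13, adjusted p = 0.000223, edgeR).

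**Figure D4:**
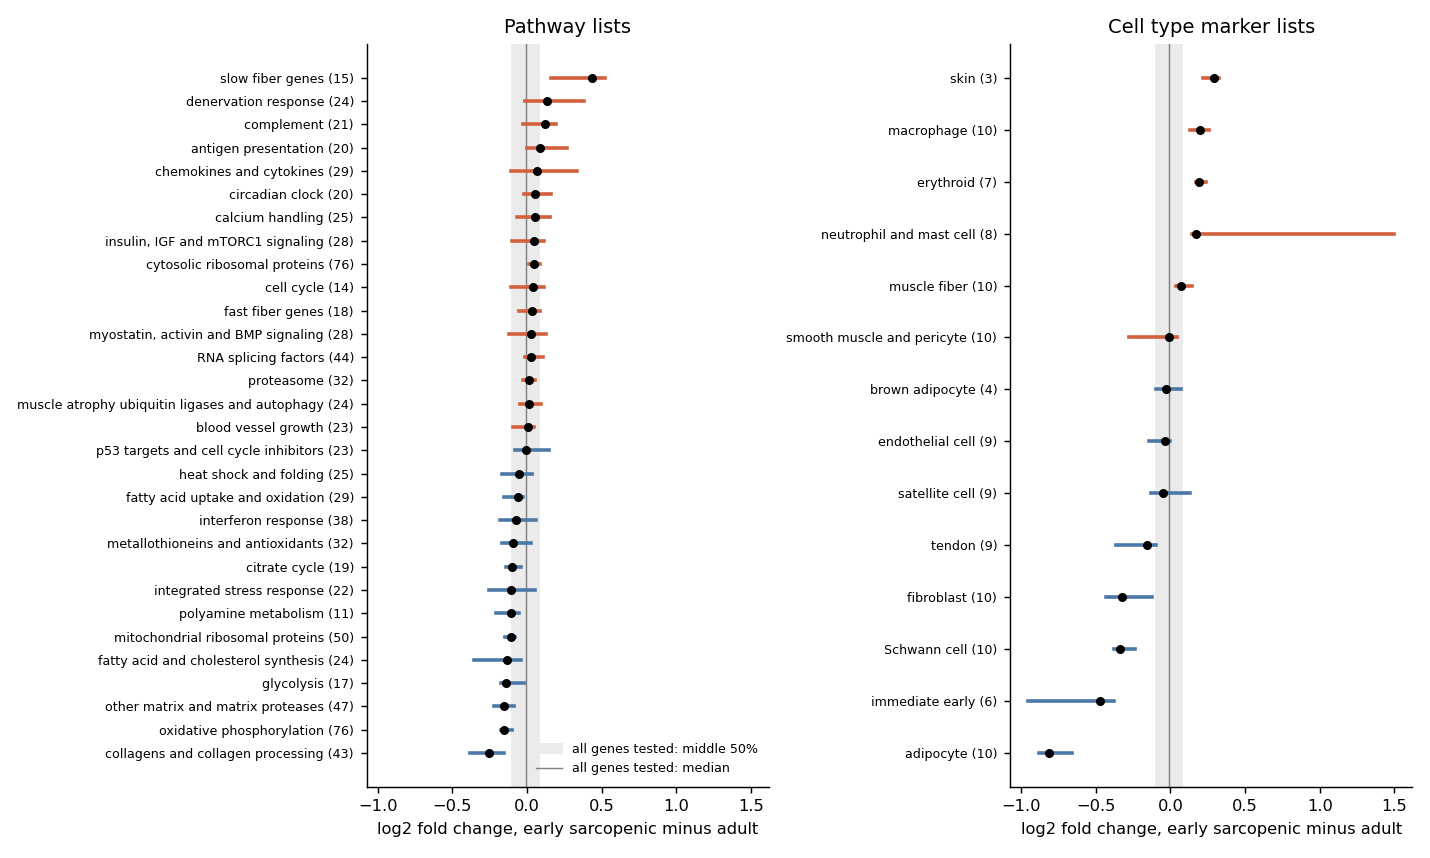
Log2 fold change between the phases (x axis) for 30 pathway lists and for the marker lists with at least 3 tested genes (y axis, number of tested genes in brackets). Dots are medians and bars the middle 50% of the genes of a list, orange where the median is above that of all genes and blue where it is below; the gray band and line are the middle 50% and the median of all genes tested.

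Genes of energy metabolism had small negative differences and no calls. In the oxidative phosphorylation list all 76 tested genes had a negative log2 change, where 51.9% of all genes did, with a median of -0.15. Of these genes 0 were called and 24 were lower at an unadjusted p under 0.05, where 10.9% of all genes were. Ndufs4, a subunit of complex I, had the smallest p of the list, at a log2 change of -0.27 (SE 0.08, adjusted p = 0.0400, edgeR). The summed level of the list ranged from 23501 to 41182 CPM in adult and from 22404 to 30407 CPM in early sarcopenic mice. Mitochondrial ribosomal proteins had a negative log2 change in 50 of 50 genes with a median of -0.11 and 0 calls. These genes are correlated, so counts of direction within a list are not independent. The proteasome list (32 genes, median 0.02) and the list of atrophy ubiquitin ligases and autophagy (24 genes, median 0.01) had 0 calls.

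Polyamine metabolism had 1 called gene of 11 tested, against 0.381% of all genes called lower. This was Smox, the spermine oxidase, which lies on the plus strand at chr2:131491496-131525922. Smox ranged from 356 over 611 to 1030.2 CPM in adult and from 232 over 335 to 688 CPM in early sarcopenic mice. It was below every adult mouse in 10 early sarcopenic mice and fell by 0.80 on the log2 scale (SE 0.17, adjusted p = 0.00485, edgeR). Its mean went from 667 CPM at 8 months over 593, 431 and 304 CPM at 18, 22 and 24 months to 179.9 CPM at 28 months. The call was lost without 8m replicate 2, without 18m replicate 7 or without 22m replicate 1, with log2 changes from -0.76 to -0.74 in these fits. Amd1, which makes the aminopropyl donor for polyamines, had medians of 3259 and 2184 CPM but did not pass the test (log2 change -0.48, SE 0.19, adjusted p = 0.147, edgeR).

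Among immune genes the chemokine Ccl8, which attracts monocytes and other leukocytes, was the 1 called gene of 29 tested chemokines and cytokines, against 0.429% of all genes called higher. Ccl8 ranged from 0.333 over 1.18 to 6.56 CPM in adult and from 2.20 over 5.37 to 13.7 CPM in early sarcopenic mice. All 16 early sarcopenic mice were above the adult median, and the log2 change was 1.71 (SE 0.27, adjusted p = 0.000180, edgeR). Neutrophil and mast cell markers had 3 calls of 8 tested, all higher, where 0.429% of all genes were, and all in neutrophil genes (S100a9, S100a8 and Csf3r). Fewer than 8 adult mice reached 1 CPM of S100a8 or of Csf3r, so both entered the test through older mice, where they were higher. The filter thus favored a rise among these markers, and their share of calls cannot be set strictly against that of all genes. S100a9, a subunit of calprotectin, ranged from 0.298 over 0.966 to 1.81 CPM in adult and from 0.643 over 4.01 to 33.8 CPM in early sarcopenic mice, a log2 change of 2.73 (SE 0.46, adjusted p = 0.000278, edgeR). Replicates 2 and 3 of 24 months had the highest S100a9, at 33.8 and 26.0 CPM. Without these 2 mice the log2 change was 2.05 for S100a9 (adjusted p = 0.00428, edgeR) and 1.11 for Csf3r, the receptor of granulocyte colony-stimulating factor (adjusted p = 0.00975, edgeR), and S100a8 was no longer called, at 1.70 (adjusted p = 0.0377, edgeR). S100a8 also missed the threshold without 18m replicate 2 and 8m replicate 3 (adjusted p = 0.0101, edgeR). Retnlg and Ly6g had too few counts to be tested.

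The list of neutrophil and mast cell markers summed to between 17.96 and 32.15 CPM in adult and between 22.56 and 79.36 CPM in early sarcopenic mice. Macrophage markers had 0 calls of 10, a median log2 change of 0.20 and sums from 168.13 to 438.77 CPM in adult and from 178.75 to 441.78 CPM in early sarcopenic mice. Of these markers 9 had a positive log2 change, where 48.1% of all genes did. An unadjusted p under 0.05 was reached by 3 of them, all higher, where 8.32% of all genes were. Of 10 lymphocyte markers 1 could be tested, the immunoglobulin chain Jchain (log2 change 1.6, SE 0.38, adjusted p = 0.0127, edgeR). Jchain ranged from 0.333 to 1.63 CPM at 8 months and from 1.11 to 5.16 CPM at 18 months. At 22 months it ranged from 1.70 to 7.77 CPM and at 24 months from 0.959 to 8.48 CPM. Most mice of 18 months thus already lay above those of 8 months. Erythroid markers, a sign of blood in the tissue, had 0 calls of 7 and summed to between 394.05 and 1303.8 CPM in adult and between 590.59 and 2101.7 CPM in early sarcopenic mice. The part of immune cells and blood in the rise of Ccl8 and the neutrophil genes was not tested.

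The p53 targets held 1 gene that rose and 1 that fell among 23 tested, against 0.429% and 0.381% of all genes, and a median log2 change of -0.01. Eda2r, a death receptor of the tumor necrosis factor receptor family, ranged from 32.3 over 47.9 to 78.7 CPM in adult and from 39.3 over 79.6 to 96.7 CPM in early sarcopenic mice, a log2 change of 0.64 (SE 0.14, adjusted p = 0.00732, edgeR). Phlda3, an inhibitor of Akt signaling, ranged from 184 over 273 to 398 CPM in adult and from 156 over 203 to 258 CPM in early sarcopenic mice, and fell by 0.40 (SE 0.08, adjusted p = 0.00404, edgeR). Cdkn1a, the cell cycle inhibitor p21, had medians of 17.3 and 24.7 CPM and did not pass the test (log2 change 0.61, SE 0.24, adjusted p = 0.145, edgeR). Eda2r lost its call in 17 of 32 cases with 1 mouse left out, and Phlda3 lost it without 18m replicate 2 and 8m replicate 3 (adjusted p = 0.0119, edgeR).

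Gstm2, a glutathione transferase, was the 1 call of 32 metallothionein and antioxidant genes, against 0.429% of all genes called higher, with medians of 39.1 and 54.6 CPM and a log2 change of 0.49 (SE 0.11, adjusted p = 0.00992, edgeR). The call of Gstm2 was lost in 23 of 32 cases with 1 mouse left out.

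Sh3rf2, a RING-type ubiquitin ligase, had the smallest adjusted p after Amy1 among the genes that rose. Sh3rf2 ranged from 11.2 over 19.5 to 27.3 CPM in adult and from 20.4 over 38.5 to 68.0 CPM in early sarcopenic mice, and in 14 early sarcopenic mice it was above every adult (log2 change 1.03, SE 0.14, adjusted p = 2.17e-05, edgeR). Fam174b ranged from 1.96 over 3.09 to 7.39 CPM in adult and from 4.14 over 9.0 to 22.9 CPM in early sarcopenic mice (1.41, SE 0.24, adjusted p = 0.000375, edgeR). Rhpn2 had medians of 4.67 and 9.76 CPM (1.13, SE 0.22, adjusted p = 0.00192, edgeR). Fam174b and Rhpn2 were above the adult median in all 16 early sarcopenic mice.

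Kcnc4, a voltage-gated potassium channel subunit, ranged from 34.8 over 40.9 to 55.6 CPM in adult and from 42.0 over 62.1 to 89.4 CPM in early sarcopenic mice (log2 change 0.60, SE 0.11, adjusted p = 0.000500, edgeR). Abcb1b, a P-glycoprotein drug pump, ranged from 9.21 over 12.7 to 16.2 CPM in adult and from 14.5 over 18.4 to 24.2 CPM in early sarcopenic mice (0.54, SE 0.12, adjusted p = 0.00542, edgeR). In 13 early sarcopenic mice Abcb1b was above every adult mouse. Emb, the cell adhesion protein embigin, had a log2 change of 0.79 (SE 0.13), Gm48584, a gene without an assigned role, 0.78 (SE 0.18) and Sh2d4a, an SH2 domain adaptor, 0.62 (SE 0.10), each called. With 1 mouse left out Gm48584 lost its call in 26 and Abcb1b in 6 of 32 cases.

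Among the other genes that fell, Neto2, an auxiliary subunit of kainate receptors, ranged from 19.6 over 28.0 to 43.8 CPM in adult and from 7.34 over 15.8 to 26.7 CPM in early sarcopenic mice. In 12 early sarcopenic mice it was below every adult mouse, and it fell by 0.89 on the log2 scale (SE 0.17, adjusted p = 0.00148, edgeR). Mettl21c, a lysine methyltransferase of muscle, ranged from 61.8 over 98.0 to 176 CPM in adult and from 43.4 over 53.1 to 116 CPM in early sarcopenic mice and fell by 0.71 (SE 0.16, adjusted p = 0.00830, edgeR). Its call was lost in 22 of 32 cases with 1 mouse left out.

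The 9 genes called between 18 and 8 months included 5 that were higher at 18 months. Besides Amy1 these held Irf7 and Ifit1, which answer to interferon. Irf7 was at a mean of 3.42 CPM at 8 and 16.2 CPM at 18 months (log2 change 2.25, SE 0.43, adjusted p = 0.00719, edgeR), and Ifit1 at 2.78 and 8.54 CPM (1.62, SE 0.30, adjusted p = 0.00472, edgeR). At 18 months Irf7 ranged from 2.4 over a median of 5.72 to 68.7 CPM and Ifit1 from 2.71 over 5.05 to 32.8 CPM, so that a few mice stood far above the rest, and 4 genes were called without 18m replicate 6. Neither Irf7 nor Ifit1 passed the test between the phases, with adjusted p-values of 0.697 and 0.835 in edgeR. The interferon list had 0 calls of 38 between the phases, and its sum reached 907.91 CPM in 1 adult mouse against an adult median of 325.13 CPM.

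The leading axes of variation were examined in a principal component analysis of log2(TPM + 1) in the 32 mice (12452 genes). The first component (PC1) held 21.1% of the variance and the second (PC2) 12%. On PC1 the adult mice stood at -4.57 ± 13.8 and the early sarcopenic mice at 4.57 ± 9.75 (SD, n = 16 each), a difference of 9.13 (two-sided permutation test, p = 0.0373), and 1 early sarcopenic mouse lay beyond every adult mouse. The difference on PC1 was not past the threshold with CPM in place of TPM (p = 0.058, permutation test) or with genes alone centered (p = 0.278, permutation test). On PC2, which was examined after the values had been seen, the adult mice stood at -6.17 ± 6.52 and the early sarcopenic mice at 6.17 ± 8.01 (p = 8e-05, permutation test, and 0.00016 adjusted over the 2 components). In 15 of 16 early sarcopenic mice PC2 was above the adult median.

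**Figure D5:**
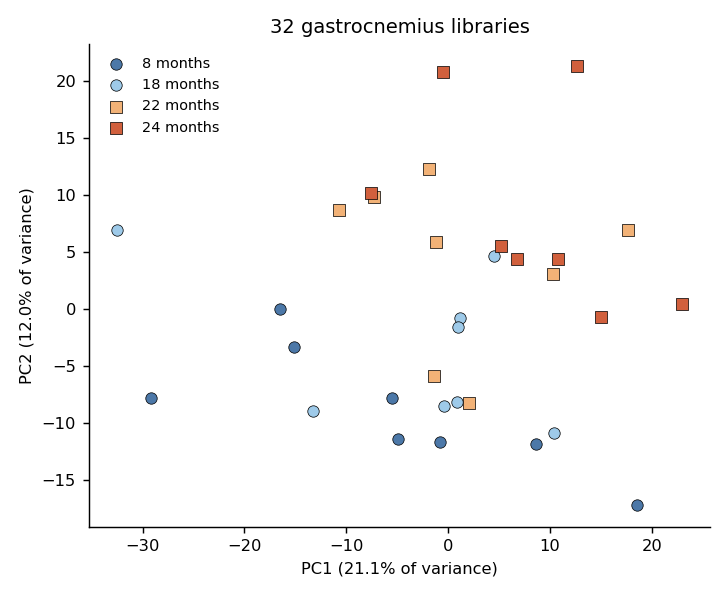
Coordinates of the 32 libraries on PC1 (x axis, 21.1% of the variance) and PC2 (y axis, 12%). Circles are adult mice (8 and 18 months) and squares early sarcopenic mice (22 and 24 months); the phases overlap along PC1, and along PC2 6 early sarcopenic mice lie above every adult mouse.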

How the data were processed

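RNA of the gastrocnemius was sequenced in 50 mice, and the 16 mice of 22 and 24 months were compared with the 16 of 8 and 18 months. The members, gene lists and tests were chosen with earlier results of these data known. According to the methods and processing notes, reads were trimmed with cutadapt 1.9.1 and assigned with kallisto 0.43.1, strand-aware, to protein-coding transcripts on GRCm38, with reads that fit several transcripts divided evenly. The counts, as deposited by the authors, are whole numbers per gene without normalization, and the deposited TPM values are scaled by transcript length and library size.

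Counts were analysed with edgeR 4.0.16 (R 4.3.3; TMM factors, quasi-likelihood test, all 50 mice in the fit with 1 mean per age, contrast of the mean of 22 and 24 months with the mean of 8 and 18 months, Benjamini-Hochberg adjustment, threshold 0.01). Tested genes reached 1 CPM or more in 8 or more of the 50 mice. DESeq2 1.42.0, edgeR's likelihood ratio test, limma 3.58.1 on log2(TPM + 1), other factors, filters and fits, and each mouse left out were alternatives. The edgeR procedure was tested on simulated counts. Principal components were computed with numpy 2.4.6 on log2(TPM + 1), genes and mice centered, and compared with 100000 permutations (scipy 1.17.1).

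Named genes were the 12 largest increases and 12 largest decreases among called genes with a mean of at least 5 CPM, the 2 called genes with the smallest p in each pathway list, and genes without overlap between the phases; other genes were named as members of a list. Gene positions came from GENCODE vM21, which is on the same build but is not the authors' release, and promoters from RefSeq, which matched 19 of the 28 named genes. No libraries were near-identical. p-values measure the spread between mice, and precision at low CPM is limited by the counts of 13607229 to 21267375 per mouse. The genes encoded by the mitochondrial genome were not analysed here, and some genes that passed the test are not reported here.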

Additional observations from a re-analysis of the deposited data

Results flagged for a closer look

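A mouse far from the other 7 of its age was found in 14 of the 112 sets of 8 values (28 named genes at 4 ages) by Dixon's test at 95%. Chance gives about 1 in 20 for normally distributed values. The CPM values were not transformed and the same mice recur across genes, so the 14 sets cannot be set strictly against this rate. At 24 months, replicate 1 had 45.5 CPM of Sln (others 6.73 to 21.1) and 55.3 CPM of Chrna1 (others 24.0 to 38.6), replicate 3 had 58.7 CPM of Serpinh1 (others 37.5 to 44.7), replicate 4 had 39.3 CPM of Eda2r (others 68.0 to 91.4), replicate 5 had 442 CPM of Scd1 (others 118 to 263) and replicate 8 had 19.0 CPM of Gm48584 (others 6.84 to 12.1). At 18 months, replicate 5 stood high in 4 genes, with 6.12 CPM of Emb, 42.7 CPM of Thrsp, 22.7 CPM of Cdo1 and 1078 CPM of Scd1, and replicate 2 had 64.8 CPM of Gstm2. At 8 months, replicate 1 had 7.39 CPM of Fam174b, replicate 2 had 22.1 CPM of Chrna1 and replicate 3 had 27.5 CPM of Col5a2.

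Amy1 differed between the adult ages by 0.52 on the log2 scale (18 minus 8 months, adjusted p = 0.00859, edgeR), so that its change from 8 months to the early sarcopenic phase was larger than that from 18 months.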

How the results depend on the processing

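Of the count of genes called between the phases (102, 54 higher and 48 lower), DESeq2 gave 184 and edgeR's likelihood ratio test 175, both with all 102 genes among them. limma gave 65 on log2(TPM + 1) and 77 on log2(TPM + 0.1), the latter with 50 higher and 27 lower. Fitting the 32 mice alone gave 289, and 1 mean per phase in the 32 mice 209. The contrast without 8 months gave 7 and without 24 months 1, in which fewer mice were compared; Amy1 was the 1 gene left without 24 months and was not called without 8 months (log2 change 0.38), and the part of age against number of mice was not tested. Between 18 and 8 months limma called 4 genes with either pseudocount and the fit of the 32 mice 5. The difference on PC1 was 8.53 with CPM and 6.05 with genes alone centered, neither past the threshold, and the cause was not tested.

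With each mouse left out in turn the count between the phases ranged from 60 (without 18m replicate 5) to 101, and was lower by over 1.5 times without 8m replicates 2, 5 and 7, 18m replicates 5 and 7, 22m replicates 1 and 2 and 24m replicates 1, 7 and 8. Between 18 and 8 months it ranged from 3 to 9, with 5 or fewer without 8m replicates 1, 3, 4, 5, 6 and 8 and 18m replicate 6. Between 24 and 22 months it was 0 in each of these fits, and the difference on PC1 ranged from 6.93 to 12.2 (permutation p from 0.00406 to 0.108). Of the 28 named genes 18 kept their call with every mouse left out, and all 28 kept their direction in each alternative run. In fits added after seeing the data, leaving out 18m replicate 2 and 8m replicate 3, the lowest on PC1, gave 92 calls between the phases and 5 between 18 and 8 months, and leaving out 24m replicates 2 and 3 gave 71 and 8. Of the 28 named genes 24 and 20 were called in these fits.

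The replicate numbers did not pair the mice: same-numbered mice of different ages had a mean correlation of -0.00567 (from -0.607 to 0.43), and 6 of 32 mice correlated best with their own number. With the number as a block 125 genes were called between the phases, 92 of them among the 102, 6 between 18 and 8 months and 0 between 24 and 22 months.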

Other observations

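Of the 102 called genes 33 had a mean under 5 CPM over the 32 mice, and the genes of this paragraph were chosen from them after their values were seen. Krt18 and Krt8, keratins of simple epithelia, rose by 1.56 (SE 0.35, adjusted p = 0.00732, edgeR) and 2.08 (SE 0.42, adjusted p = 0.00314, edgeR) on the log2 scale. Krt18 ranged from 0.268 to 2.04 CPM in adult and from 0.575 to 7.34 CPM in early sarcopenic mice. Ngfr, the low-affinity receptor of nerve growth factor, rose by 0.98 (SE 0.21, adjusted p = 0.00457, edgeR), with medians of 0.478 and 0.937 CPM. All 3 genes overlapped between the phases. A gene under 1 CPM in most adult mice could enter the test through older mice where it was higher, so the filter could favor a rise. Ngfr, with an adult median of 0.478 CPM, was such a gene. How many adult mice reached 1 CPM of Krt8 or Krt18 is not given here. Without 24m replicates 2 and 3 Krt8 and Ngfr were still called, and Krt18 was not (adjusted p = 0.0177, edgeR). Without 18m replicate 2 and 8m replicate 3 Krt8 was still called, and Ngfr (adjusted p = 0.0115, edgeR) and Krt18 (adjusted p = 0.0103, edgeR) were not.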
